A study of Mus musculus with 30 samples.

Results

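The 10 growth arrest and p53 target genes Cdkn1a, Gadd45a, Gadd45b, Gadd45g, Btg1, Btg2, Mdm2, Ccng1, Trp53inp1 and Plk2 were examined in aged mouse muscle. They were chosen by gene symbol, with earlier results of these data known. Each has 1 row in the deposited tables, which hold 56951 symbols. All 10 passed the minimum on reads and level and are among the 12030 genes tested.

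Gastrocnemius muscle, collected along with the plantaris, came from wild-type male C57BL/6J mice that were 14 weeks old when the light schedules began and spent 64 weeks on them. The LD group (14 mice) stayed on a fixed light-dark cycle. In the ADV group (16 mice), which served as the model of chronic jet lag, the cycle was moved forward by 8 h every 4 days. Every mouse of both groups lived alone with a running wheel, had a period in constant darkness before the schedules, and gave 1 poly(A)-enriched library, so each value is from 1 animal. Tissue was taken over several daytime hours, when both groups were in the same light period, and the hour for each mouse is not in the labels.

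The transcription factor p53, made from Trp53, is kept low by Mdm2, a ubiquitin ligase that p53 itself induces, and DNA damage breaks this loop. Activated p53 raises a set of genes that stop the cell cycle, repair DNA or start cell death. Several of these genes also respond without p53 to stress kinases, growth factor signals, glucocorticoids or muscle disuse, and in mature muscle fibers, which do not divide, Cdkn1a and Gadd45a are known to rise after denervation and immobilization. The comparison asked whether the p53 targets moved together between the schedules or whether the members that stress also induces moved alone.

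The libraries held 18875468.5 to 28512674 reads on exons, and the members' mean counts ranged from 195.8 (Plk2) to 17265.8 (Ccng1), with 59 reads as the lowest single count (Gadd45b). Muscle fiber markers were abundant in every mouse (summed FPKM over 10 genes 70768.9 to 91789.1 in LD mice and 72680.5 to 97049.6 in ADV mice). Of 8 leukocyte markers 6 were tested, and the B and T cell genes Cd79a and Cd3e were under the minimum. None of the 10 muscle fiber, 7 slow fiber, 6 leukocyte, 5 adipocyte, 6 Schwann cell and 2 tested satellite cell markers passed the test between the schedules, while 1 of 6 endothelial markers rose and 1 of 6 fibroblast markers fell. Over all genes tested 5.74% rose and 5.12% fell by it, and 30.0% had an unadjusted p under 0.05. Short of that test, some lists leaned one way, with all 5 adipocyte markers (median log2 fold change 0.79, 3 with an unadjusted p under 0.05), all 6 Schwann cell markers (0.44, 5 with such a p) and all 7 slow fiber markers (0.46, 0 with such a p) higher in the ADV group. Lower in that group were all 6 fibroblast markers (-0.12, 3 with such a p) and 5 of the 6 leukocyte markers tested (median over the 6 -0.28, 2 with such a p). The adipocyte markers summed to 28.3 to 168.6 FPKM (LD) and 19.2 to 285.9 FPKM (ADV), and the Schwann cell markers to 24.8 to 47.6 and 26.7 to 82.7 FPKM. Their part in the members' values was not tested. In bulk muscle, fewer cells of a type and less RNA per cell cannot be told apart.

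The members did not move together. Cdkn1a and Btg2 rose in the ADV group, Ccng1 fell slightly, and the other 7 did not pass the test. By edgeR's quasi-likelihood test with Benjamini-Hochberg adjusted p-values over the 12030 genes (FDR), 3 of 10 members had an FDR under 0.05, against 10.9% of all genes tested. In the upward direction these were 2 members, against 5.74% of all genes, and in the downward direction 1 member, against 5.12%. With a fold change over 1.3 as well, 2 of 10 members were DEGs, against 2.09% of all genes. Because the members were chosen with earlier results known, these shares describe the list and do not test it. The median log2 fold change of ADV over LD was -0.03 over the 10 members and 0.0035 over all genes, and 4 members were higher and 6 lower. The FPKM ranges of the groups overlapped for all 10 members, and they did not overlap for 0.00831% of the genes tested.

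**Figure D1:**
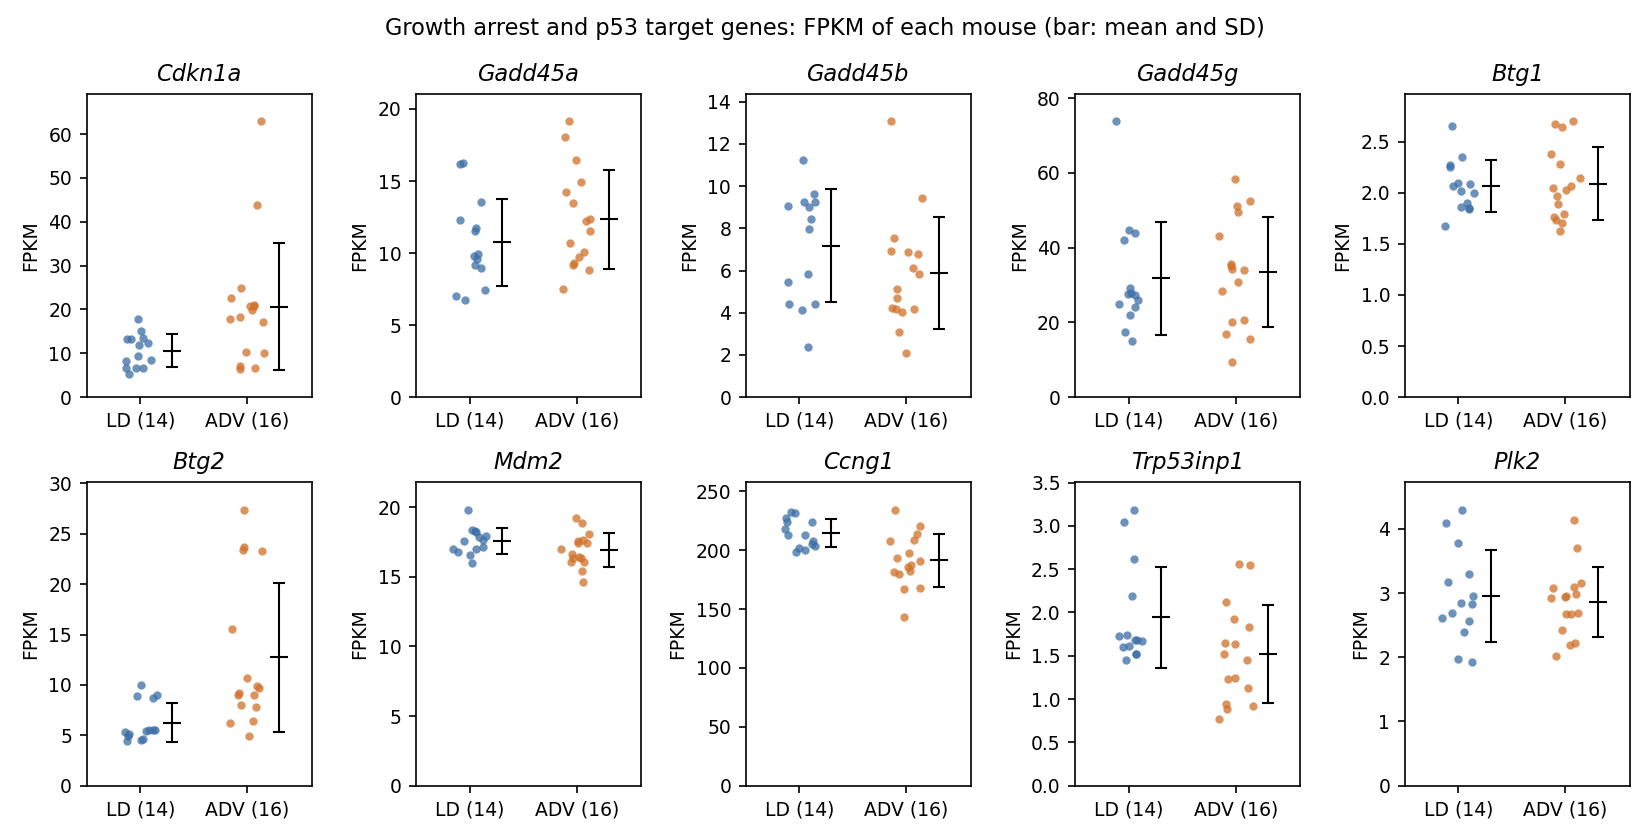
FPKM (reads per kilobase of exon, scaled to library size) of each of the 10 members, 1 panel per gene with its own linear axis from 0, and 1 point per mouse (14 LD, 16 ADV), beside the mean and SD of each group. Cdkn1a and Btg2 spread upward in the ADV group, to 62.97 and 27.4 FPKM, Ccng1 shifts down, and the ranges overlap in every panel.

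Cdkn1a encodes p21, an inhibitor of cyclin-dependent kinases and the classic effector of p53 in growth arrest. Its row is a transcript of 917 exonic bases on the forward strand (chr17:29309953-29318675, GRCm39). In the LD group it ranged from 5.26 to 17.8 FPKM with a median of 10.7, and in the ADV group from 6.38 to 63.0 FPKM with a median of 19.1. Of the ADV mice 9 of 16 lay above the highest LD mouse, while the lowest of them lay well within the LD range. The mean went from 10.6 ± 3.78 FPKM (SD, n = 14) to 20.7 ± 14.6 FPKM (n = 16), and the edgeR log2 fold change was 0.95 (standard error 0.27, 95% interval 0.40 to 1.50, FDR 0.0240). The mice with label numbers 31 and 34 stood highest in the ADV group, at 63.0 and 43.9 FPKM, and the next mouse was at 24.9 FPKM. With limma on log2(FPKM + 0.1), with limma on log2(FPKM + 1) and with the Wilcoxon rank-sum test on FPKM the FDR of Cdkn1a was 0.0541, 0.0527 and 0.0820, while DESeq2 gave 0.0116.

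Btg2, an antiproliferative protein that joins the CCR4-NOT deadenylase and is induced by p53 and as an immediate early gene, lies on the reverse strand (chr1:134002908-134006858). Its level was 4.47 to 10.04 FPKM in the LD group, with a median of 5.46, and 4.89 to 27.4 FPKM in the ADV group, with a median of 9.43. All but 1 of the ADV mice, 15 of 16, were above the LD median, and 6 were above the highest LD mouse. The mean rose from 6.26 ± 1.95 to 12.8 ± 7.40 FPKM, and the edgeR log2 fold change was 1.02 (standard error 0.23, 95% interval 0.55 to 1.49, FDR 0.00672). A group of 4 ADV mice stood apart at 23.3 to 27.4 FPKM, and the other 12 were at 4.89 to 15.6 FPKM. These 4 carry the label numbers 21, 25, 29 and 33. The 3 LD mice with these numbers were at 4.51 to 8.95 FPKM, within the range of the other LD mice. Without these 7 libraries, which were chosen for their Btg2 values so that a smaller difference follows from the choice, the log2 fold change of Btg2 was 0.49 (edgeR FDR 0.0803). That of Cdkn1a was 1.04 (FDR 0.0565), and that of Ccng1 was -0.17 (FDR 0.0712), and under this choice 453 genes were called in all. What the label numbers stand for is not in the labels.

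Ccng1 encodes cyclin G1, a p53 target that recruits a phosphatase to Mdm2, and was the most abundant member (chr11:40639379-40646138, reverse strand). It ranged from 198.7 to 232.4 FPKM in the LD group (median 213.0) and from 143.5 to 234.5 FPKM in the ADV group (median 189.4). Most ADV mice, 11 of 16, were below the lowest LD mouse, and 1 was above the highest. The mean went from 214.3 ± 12.0 to 191.3 ± 22.5 FPKM, a log2 fold change of -0.18 (standard error 0.048, 95% interval -0.28 to -0.08, edgeR FDR 0.0184). Its transcript has a low GC content, 40.8%, and with each library's trend with GC content removed the log2 fold change was -0.06 (edgeR FDR 0.305).

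**Figure D2:**
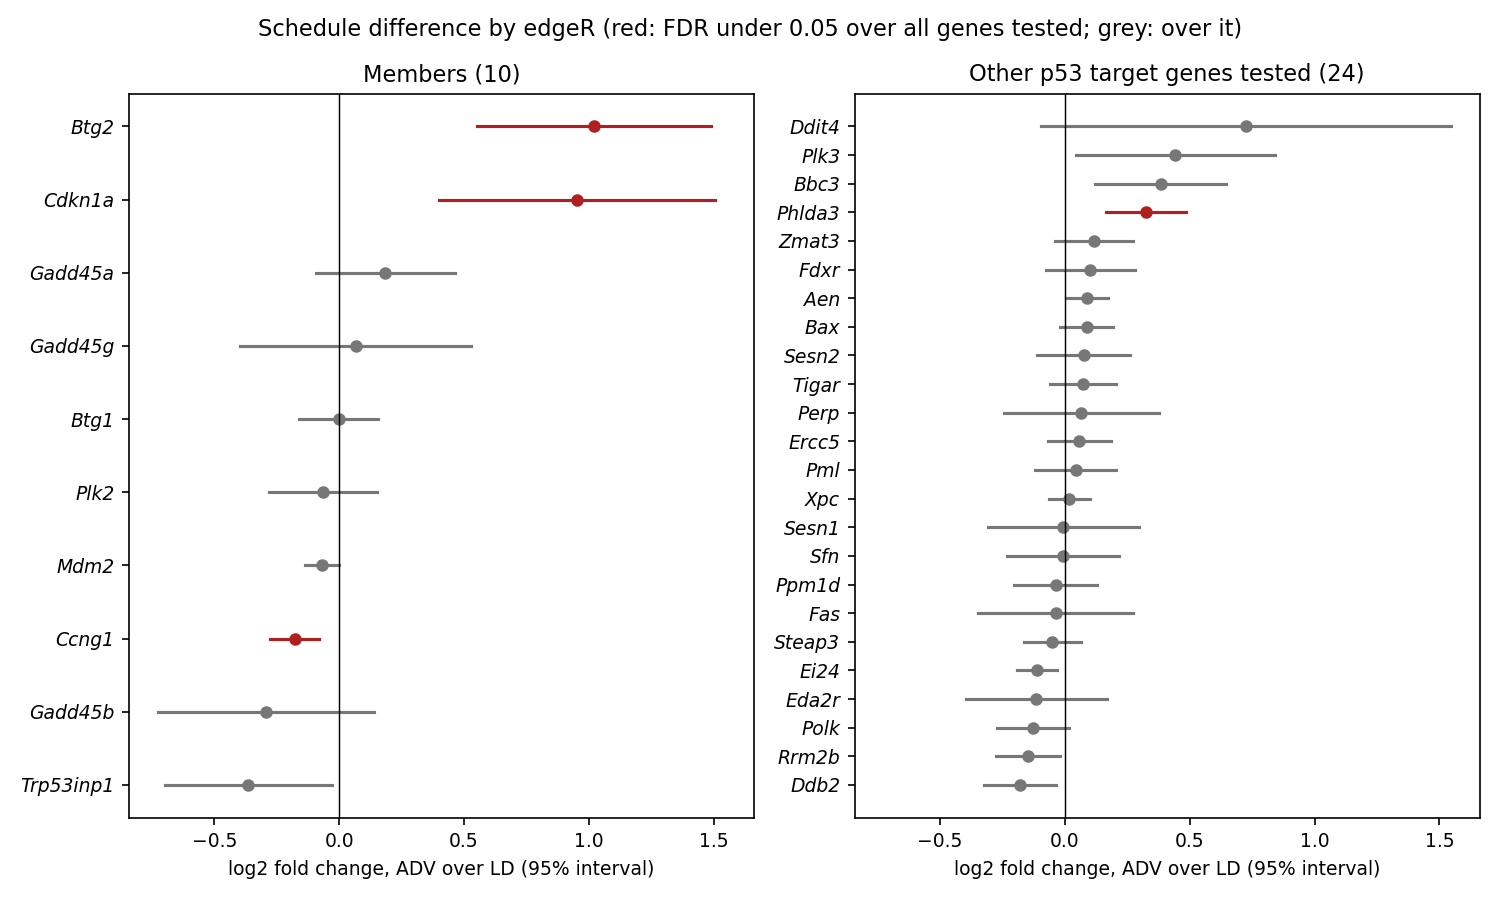
Log2 fold change of ADV over LD with its 95% interval from edgeR for the 10 members (left) and for the 24 other p53 target genes that were tested (right), red where the FDR over all genes was under 0.05 and grey otherwise. Btg2 (1.02), Cdkn1a (0.95) and Ccng1 (-0.18) are red among the members, and Phlda3 (0.32) alone among the other targets.

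Sequences from the 3 members that changed are shown because the question turns on p53, whose binding site is a pair of decamers with a C and a G at fixed places. For Cdkn1a and Btg2 these are the 250 bases that end just before the start of the deposited transcript (GRCm39), read 5′ to 3′ on the strand of the gene. Capitals mark a match to the 20-base p53 consensus with at most 1 mismatch (Cdkn1a) or the cyclic AMP response element TGACGTCA (Btg2). The last line is a p53-like match of 20 bases in Ccng1, where capitals mark the CNNG core of each decamer.
Cdkn1a, chr17:29309703-29309952, forward strand: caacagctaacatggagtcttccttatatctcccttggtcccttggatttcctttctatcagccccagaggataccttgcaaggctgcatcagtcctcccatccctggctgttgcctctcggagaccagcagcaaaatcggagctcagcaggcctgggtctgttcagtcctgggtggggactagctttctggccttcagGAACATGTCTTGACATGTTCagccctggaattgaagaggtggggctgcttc
Btg2, chr1:134006859-134007108, reverse strand: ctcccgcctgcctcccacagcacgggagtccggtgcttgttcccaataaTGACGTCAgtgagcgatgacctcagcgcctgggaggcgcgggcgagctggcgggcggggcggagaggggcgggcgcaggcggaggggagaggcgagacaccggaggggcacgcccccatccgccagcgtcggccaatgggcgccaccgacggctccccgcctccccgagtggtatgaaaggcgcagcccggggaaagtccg
Ccng1, chr11:40645763-40645782, reverse strand: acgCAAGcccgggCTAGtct

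The Cdkn1a match (chr17:29309902-29309921) begins 51 bases before the transcript start, within an annotated exon of the noncoding gene Gm64878. The Ccng1 match printed here begins 356 bases after the start, within the gene and outside its exons. Such a match was found for Cdkn1a, which rose, and for Ccng1, which fell. Within 2500 bases on either side of the start, 2 of 10 members had a match with at most 1 mismatch, against 0.81% of all genes tested. With at most 2 mismatches it was 3 of 10 members, Plk2 being the third with matches that begin 652 and 2164 bases upstream, against 5.38% of all genes. No member had a match without mismatch, and 0.1% of all genes did. The members were listed as growth arrest and p53 target genes, so these shares describe the list and do not test it.

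In the same 250-base windows on either strand, TGACGTCA was found upstream of Btg2, 201 bases before the start, and of Plk2, 64 bases before it, and in 2.67% of all windows. The E-box CACGTG, bound by the clock factors CLOCK and BMAL1, was found upstream of Gadd45b, Gadd45g and Trp53inp1 and in 8.29% of all windows. The nuclear receptor sequence AGGTCA was found upstream of Btg2 and Trp53inp1 and in 10.7% of windows. The AP-1 sequence TGANTCA (4.04% of windows) and the CArG box of serum response factor (1.16%) were upstream of no member. The Cdkn1a window held none of the motifs searched apart from the p53 match. These are matches of letters, and binding was not measured.

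The remaining members of the class listed as most closely tied to p53 were lower in the ADV group without passing the test. The class is a label of the gene list. Trp53inp1, which is in it, also went with a score of glucocorticoid response genes in the LD group, as given below. Mdm2 (chr10:117524780-117546663, reverse strand) ranged from 16.0 to 19.8 FPKM in the LD group (median 17.6) and from 14.6 to 19.2 FPKM in the ADV group (median 16.8). The log2 fold change was -0.07 (95% interval -0.14 to -0.00095), with an unadjusted p of 0.0471 and an edgeR FDR of 0.160. By the coefficient of variation of FPKM, Mdm2 varied least of the members from mouse to mouse, at 5.43% in the LD group and 7.15% in the ADV group. Ccng1 was close to it in the LD group (5.59%) and at 11.8% in the ADV group. On the log2 CPM scale Ccng1 varied less than Mdm2 in the LD group (SD 0.062 against 0.068). Trp53inp1, a stress-induced nuclear protein that acts with p53 in cell death (chr4:11156431-11174379, forward strand), ranged from 1.45 to 3.19 FPKM (median 1.68) in the LD group and from 0.768 to 2.56 FPKM (median 1.49) in the ADV group. Of the ADV mice, 7 of 16 were below the lowest LD mouse. Its log2 fold change was -0.36 (95% interval -0.70 to -0.03), with an unadjusted p of 0.0339 and an edgeR FDR of 0.133. With Ccng1, all 3 members of this class were lower with an unadjusted p under 0.05, a limit that 30.0% of all genes passed in either direction, and 1 of the 3 had an FDR under 0.05. The GC content was 46.3% for Mdm2 and 38.4% for Trp53inp1. With each library's trend with GC content removed, as for Ccng1 above, Mdm2 was at -0.03 (edgeR FDR 0.643) and Trp53inp1 at -0.23 (FDR 0.316).

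Among the members that both p53 and other stress signals induce, Cdkn1a and Btg2 rose, and Gadd45a and Plk2 did not pass the test. Gadd45a, a small protein that activates the stress kinase cascade and binds PCNA, lies on the reverse strand (chr6:67012080-67014390) and was at 6.75 to 16.2 FPKM in LD mice (median 9.85) and 7.47 to 19.2 FPKM in ADV mice (median 11.9). Its log2 fold change was 0.19 (95% interval -0.09 to 0.46, edgeR FDR 0.371), so a fold between 0.937 and 1.38 lies within the interval. Of the exon bases annotated to Gadd45a, 55.8% overlap E230016M11Rik on the other strand. The sequencing was stranded, while the strand setting of the counting is not given in the sources used here. Plk2, a polo-like kinase (chr13:110531580-110537378, forward strand), was at 1.93 to 4.30 FPKM in LD mice (median 2.84) and 2.01 to 4.14 FPKM in ADV mice (median 2.93). The log2 fold change was -0.06 (95% interval -0.28 to 0.15, edgeR FDR 0.714). For Btg2 14.3% of the annotated exon bases overlap a gene on the other strand (Gm31974). The share was 8.3% (Dino) and 4.1% (Gm64878) for Cdkn1a, 4.5% for Mdm2 (Gm56970) and 2.6% for Ccng1 (Nudcd2). All these shares are over the exons of every annotated transcript of a gene. The share of the counted transcript itself was not measured and can be larger or smaller.

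The members that stress or growth signals induce largely apart from p53 did not pass the test in either direction. Gadd45b, a sensor of inflammatory and growth factor signals (chr10:80765907-80768038, forward strand), was at 2.37 to 11.2 FPKM in LD mice (median 8.20) and 2.11 to 13.1 FPKM in ADV mice (median 5.49). Only 2 of 16 ADV mice were above the LD median, and the log2 fold change was -0.29 (95% interval -0.73 to 0.14, edgeR FDR 0.356). Gadd45g, the most abundant of its family here (chr13:52000714-52002504, forward strand), was at 15.04 to 73.9 FPKM in LD mice (median 27.4) and 9.28 to 58.4 FPKM in ADV mice (median 34.2). The highest value belonged to an LD mouse, and the log2 fold change was 0.07 (95% interval -0.40 to 0.53, edgeR FDR 0.871). Btg1, the paralog of Btg2 (chr10:96452868-96458671, forward strand), was at 1.68 to 2.65 FPKM in LD mice (median 2.04) and 1.63 to 2.7 FPKM in ADV mice (median 2.04), with a log2 fold change of -0.0021 (95% interval -0.16 to 0.16, edgeR FDR 0.990). The paralogs thus gave 1.02 and -0.0021 in the same mice. The difference between them was not tested.

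On the FPKM scale, which is per length, the members lay between percentile 23.2 (Trp53inp1) and percentile 98.1 (Ccng1) of the mean levels of all genes tested. The order of mean levels in the LD group was Ccng1, Gadd45g, Mdm2, Gadd45a, Cdkn1a, Gadd45b, Btg2, Plk2, Btg1 and Trp53inp1. Ccng1 was above Gadd45g in all 14 LD and all 16 ADV mice, and Btg2 was above Plk2 in all mice of both groups. Gadd45a and Cdkn1a could not be ordered in the LD group, where Gadd45a was the higher in 8 of 14 mice, and in the ADV group it was so in 4 of 16. Gadd45b and Btg2 also lay within each other's spread in the LD group, with Gadd45b higher in 8 of 14 mice, and Gadd45b was the higher in 2 of 16 ADV mice. The spread between mice was 35.7% of the mean for Cdkn1a and 31.1% for Btg2 in the LD group and 70.4% and 58.0% in the ADV group.

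The rest of the p53 pathway was set beside all genes tested. Of 33 other p53 target genes 24 were tested, and 1 of them, Phlda3, had an FDR under 0.05, beside the 10.9% of all genes. The median log2 fold change of the 24 was 0.05, with 14 higher and 10 lower in the ADV group. Single values ran from -0.18 (Ddb2, edgeR FDR 0.0845) to 0.73 (Ddit4, FDR 0.224). An unadjusted p under 0.05 was found for 7 of the 24, against 30.0% of all genes. Bbc3 was just over the FDR limit (0.38, FDR 0.0509), with 15 of 16 ADV mice above the LD median. Phlda3, a repressor of Akt, went from 116.9 ± 19.5 to 148.0 ± 17.5 FPKM, with all 16 ADV mice above the LD median and a log2 fold change of 0.32 (95% interval 0.17 to 0.48, edgeR FDR 0.00961). The most abundant of those that did not pass were Tigar, a regulator of glycolysis (log2 fold change 0.07, FDR 0.473), and Ei24 (-0.11, FDR 0.0618). The targets not tested were Apaf1, Ckap2, Gdf15, Gtse1, Pidd1, Pmaip1, Psrc1, Tnfrsf10b and Trp53cor1, which were under the minimum on reads or on FPKM.

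Among the regulators of p53, 17 of 20 genes were tested, 1 fell and none rose, against 5.12% and 5.74% of all genes. Trp53 itself was measured at 7.19 ± 1.35 FPKM (LD) and 7.80 ± 1.44 FPKM (ADV) (log2 fold change 0.10, 95% interval -0.07 to 0.28, edgeR FDR 0.438). Mdm4, the partner of Mdm2, had a log2 fold change of -0.13 (FDR 0.123). Usp7, a deubiquitinase of Mdm2 and p53, fell from 18.8 ± 0.644 to 17.5 ± 1.21 FPKM (log2 fold change -0.12, FDR 0.0342). Hipk2 and Rchy1, the most abundant of the others, had log2 fold changes of -0.24 (FDR 0.293) and -0.04 (FDR 0.514). Cdkn2a, the source of p16 and ARF, was under the minimum and not tested. The protein levels and modifications that set p53 activity were not measured.

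Among the partners and relatives of the members every call was downward, where 5.12% of all genes were called in that direction. Of the BTG family and CCR4-NOT genes 9 of 11 were tested, and Cnot7, the deadenylase that Btg2 binds, fell (log2 fold change -0.21, edgeR FDR 0.0224). Tob1 and Tob2, the abundant relatives of Btg2, had log2 fold changes of -0.10 (FDR 0.215) and -0.01 (FDR 0.971). Of the kinases and partners of the Gadd45 proteins 11 of 12 were tested and 3 fell, namely Map2k6 (-0.26, FDR 0.0204), Mapk9 (-0.16, FDR 0.00869) and Map2k4 (-0.13, FDR 0.00679). For Map2k4 none of the 16 ADV mice was above the LD median. Mapk12 and Map2k3 did not pass (0.0080, FDR 0.929, and 0.04, FDR 0.749).

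Of the other inhibitors of the cell cycle 8 of 10 were tested, and Cdkn1b, which encodes p27, fell by 0.18 on the log2 scale (FDR 0.0381). Here and for the cell cycle genes below, the shares over all genes were 5.12% downward and 5.74% upward. Rbl2 and Cdkn1c had log2 fold changes of -0.14 (FDR 0.158) and 0.11 (FDR 0.427). Of 21 cell cycle genes 10 were tested, while Mki67, Top2a, Cdk1 and 8 others were under the minimum. Ccnd3, a cyclin of muscle differentiation, rose (0.28, FDR 0.0387), and Ccne2 fell (-0.37, FDR 0.0240). Pcna and Cdk4 did not pass (0.05, FDR 0.522, and 0.04, FDR 0.532). Plk3 was the single other polo-like kinase tested (0.44, FDR 0.126).

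Within each group the members did not rise and fall as a block from mouse to mouse. Over the 45 pairs of members the Pearson correlation of log2 CPM ran from -0.59 to 0.74 in the LD group, with a median of 0.18, and from -0.62 to 0.62 in the ADV group, with a median of 0.03. Of the 90 correlations in both groups, 7 in the LD group and 6 in the ADV group had an unadjusted permutation p under 0.05, and 0 had an adjusted one. The highest was between Btg2 and Trp53inp1 in the LD group (r = 0.74, rho = 0.67, permutation p = 0.00374 and 0.0115, adjusted p = 0.196 and 0.304, r = 0.53 without the 2 mice farthest on the x axis). In the ADV group it was between Mdm2 and Ccng1 (r = 0.62, rho = 0.60, permutation p = 0.0107 and 0.0164, adjusted p = 0.196 and 0.304, r = 0.82 without 2 mice). The lowest was between Gadd45a and Btg2 in the ADV group (r = -0.62, rho = -0.66, permutation p = 0.0114 and 0.0065, adjusted p = 0.196 and 0.304, r = -0.67 without 2 mice).

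**Figure D3:**
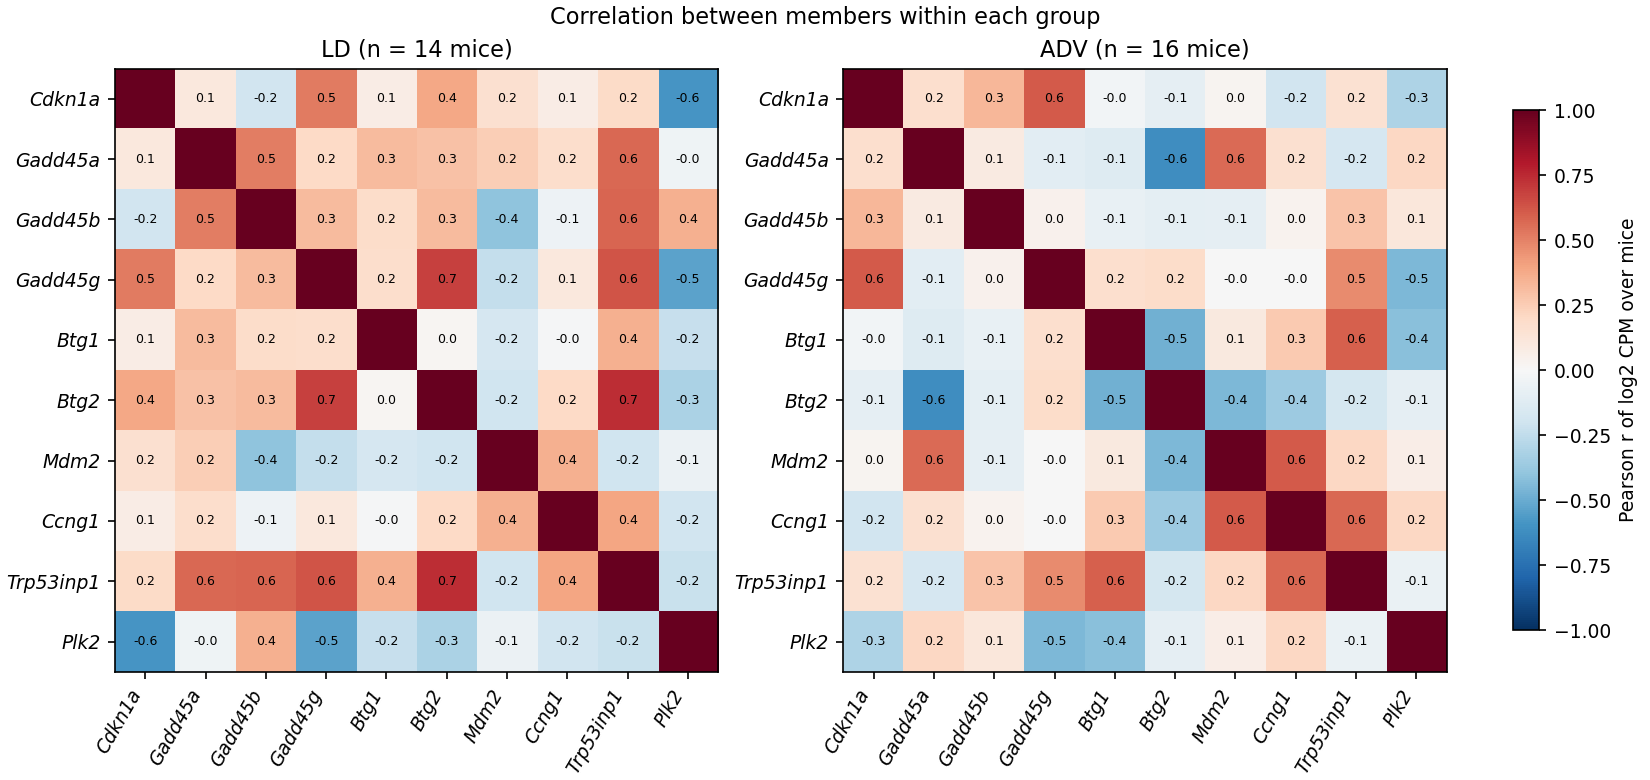
Pearson correlation of log2 CPM between each pair of members over the 14 LD mice (left) and the 16 ADV mice (right), on a color scale from -1 (blue) to 1 (red), with values rounded to 1 decimal. Both signs occur in each group, with medians over the 45 pairs of 0.18 in the LD group and 0.03 in the ADV group.

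The levels of the members that rose were not correlated detectably over mice. In the ADV group Cdkn1a and Btg2 had a correlation of -0.09 (rho = 0.08, permutation p = 0.732 and 0.763, adjusted p = 0.913 for r, -0.20 without 2 mice), and in the LD group one of 0.39 (rho = 0.22, p = 0.170 and 0.454, adjusted p = 0.638 for r). Of the 16 ADV mice, 4 were above the highest LD mouse in both genes, 5 in Cdkn1a alone, 2 in Btg2 alone and 5 in neither. The ADV mouse with label number 31, the highest in Cdkn1a, was at 8.97 FPKM of Btg2, and it was also the highest of its group in Gadd45g (58.4 FPKM), Ccng1 (234.5 FPKM) and Trp53inp1 (2.56 FPKM). The ADV mouse with number 25, the highest in Btg2, was at 20.9 FPKM of Cdkn1a and the lowest of its group in Mdm2 (14.6 FPKM), Ccng1 (143.5 FPKM) and Trp53inp1 (0.768 FPKM). The mouse with number 21 was at 23.3 FPKM of Btg2 and 6.55 FPKM of Cdkn1a, among the lowest of its group.

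Gene lists outside the p53 pathway differed between the schedules and were set beside the members. Among all genes tested 5.74% rose and 5.12% fell. Of 24 immediate early genes, which respond within minutes to stimuli such as contraction, 19 were tested and 11 rose, with none lower and a median log2 fold change of 0.47. Of the 8 clock genes that are low when Bmal1 is high all were tested and 7 fell (median -0.75), and of the 5 tested genes that move with Bmal1 3 rose (median 0.54). Of 12 glucocorticoid response genes none passed the test (median 0.07). For each list a score was made as the mean of the standardized log2 CPM values of its genes, and the clock score is the score of the genes that move with Bmal1 minus that of the genes that move against it. The clock score was -1.07 ± 1.24 in the LD group and 0.94 ± 0.79 in the ADV group, and the immediate early score was -0.41 ± 0.43 and 0.36 ± 0.69. For both scores 6 of 16 ADV mice were above the highest LD mouse. The glucocorticoid score was -0.0043 ± 0.81 and 0.0037 ± 0.64.

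Btg2 followed the immediate early score, which does not contain it. Within the ADV group the correlation was 0.91 (rho = 0.75, permutation p = 1e-05, the smallest the permutations can give, and 0.00128), and with adjustment over the 60 relations between members and scores the p values were 6.0e-04 and 0.0192. Without the 2 mice farthest in the score it was 0.85. In the LD group r was 0.55 (rho = 0.55, permutation p = 0.0439 and 0.0440, adjusted p = 0.187 and 0.193, r = 0.55 without 2 mice). When the immediate early score entered the fit as a covariate, Btg2 had a log2 fold change between the schedules of 0.16 (standard error 0.15, edgeR FDR 0.589), and that of Cdkn1a was 1.11 (standard error 0.30, FDR 0.0704).

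Cdkn1a stood in another relation. When the clock score entered the fit as a covariate, the log2 fold change of Cdkn1a became 0.04 with a standard error of 0.36 (edgeR FDR 0.967), while that of Btg2 was 1.37 (standard error 0.31, FDR 0.141) and that of Ccng1 -0.20 (standard error 0.069, FDR 0.251). Under this covariate 0 of the 12030 genes had an FDR under 0.05, and 1580 had an unadjusted p under 0.05. Within the ADV group Cdkn1a and the clock score had a correlation of 0.60 (rho = 0.30, permutation p = 0.0136 and 0.260, adjusted p = 0.117 and 0.534), which fell to 0.20 without the 2 mice farthest in the score and so rests on them. In the LD group it was 0.53 (rho = 0.59, permutation p = 0.0537 and 0.0301, adjusted p = 0.190 and 0.193, r = 0.26 without 2 mice). Because both scores differ between the groups, a difference between schedules and a difference in score cannot be told apart in these fits.

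**Figure D4:**
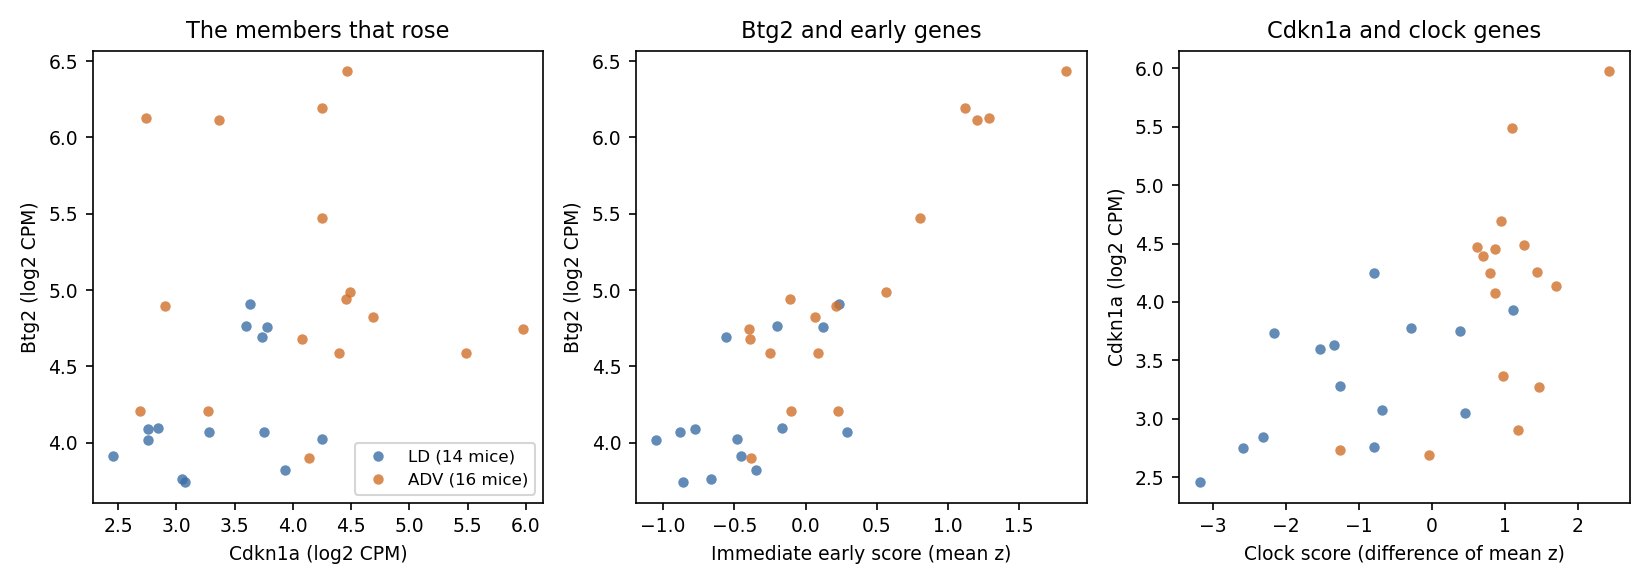
Log2 CPM of Btg2 against that of Cdkn1a (left), of Btg2 against the immediate early score (middle) and of Cdkn1a against the clock score (right), 1 point per mouse, LD in blue (14) and ADV in orange (16). In the ADV group r is -0.09 on the left, 0.91 in the middle and 0.60 on the right, where it is 0.20 without the 2 mice farthest in the score.

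The glucocorticoid score, which did not differ in mean between the groups, went with Gadd45g and Trp53inp1. By rho alone it also went with Cdkn1a in the ADV group and with Btg2 in the LD group. Gadd45g followed it in the ADV group (r = 0.77, rho = 0.79, permutation p = 4.6e-04 and 5.1e-04, adjusted p = 0.0122 and 0.0153, r = 0.81 without 2 mice) and had r = 0.54 in the LD group (rho = 0.55, permutation p = 0.0480 and 0.0451, adjusted p = 0.187 and 0.193, r = 0.47 without 2 mice). Trp53inp1 followed it in the LD group (r = 0.79, rho = 0.73, permutation p = 6.1e-04 and 0.00389, adjusted p = 0.0122 and 0.0467, r = 0.74 without 2 mice), and in the ADV group r was 0.57 (rho = 0.55, permutation p = 0.0211 and 0.0290, adjusted p = 0.117 and 0.193, r = 0.41 without 2 mice). For Cdkn1a in the ADV group rho passed the adjustment and r did not (r = 0.60, rho = 0.75, permutation p = 0.0144 and 0.00126, adjusted p = 0.117 and 0.0192, r = 0.73 without 2 mice). The same held for Btg2 in the LD group (r = 0.69, rho = 0.84, permutation p = 0.00677 and 3.3e-04, adjusted p = 0.102 and 0.0153, r = 0.79 without 2 mice). Neither measure passed for Cdkn1a in the LD group (r = 0.34, rho = 0.22, permutation p = 0.234 and 0.450, adjusted p = 0.467 and 0.650). Nor did they for Btg2 in the ADV group, where it rose (r = 0.11, rho = 0.22, permutation p = 0.671 and 0.419, adjusted p = 0.821 and 0.629). Whether these relations differ between the groups was not tested. Mdm2, Ccng1, Plk2, Btg1, Gadd45a and Gadd45b had no relation with any of the 3 scores that passed the adjustment.

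The genes most like a member were found by the Pearson correlation of log2 CPM, centered within group, over 30 mice, and are given as a description. For Cdkn1a they were Nfkbia (0.71), Plekhf1 (0.70) and Ddit4 (0.68), and Ddit4 is itself on the list of p53 targets. For Ccng1 they were Tlcd4 (0.86), Rps6kb1 (0.85) and Fgfr1op2 (0.84). Below the values of Ccng1 were also those for Gadd45a (Thumpd1 0.71, Shld3 0.68, Wdr43 0.65), Plk2 (Inpp5f 0.70, Septin4 0.68, Lrig3 0.61) and Mdm2 (Spast 0.65, Zfp667 0.65, Fan1 0.64). For Btg2, which was added to this search after its values were seen, they were Csrnp1 (0.90), an immediate early gene of the list above, Trib1 (0.85) and Thbs1 (0.84).

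**Figure D5:**
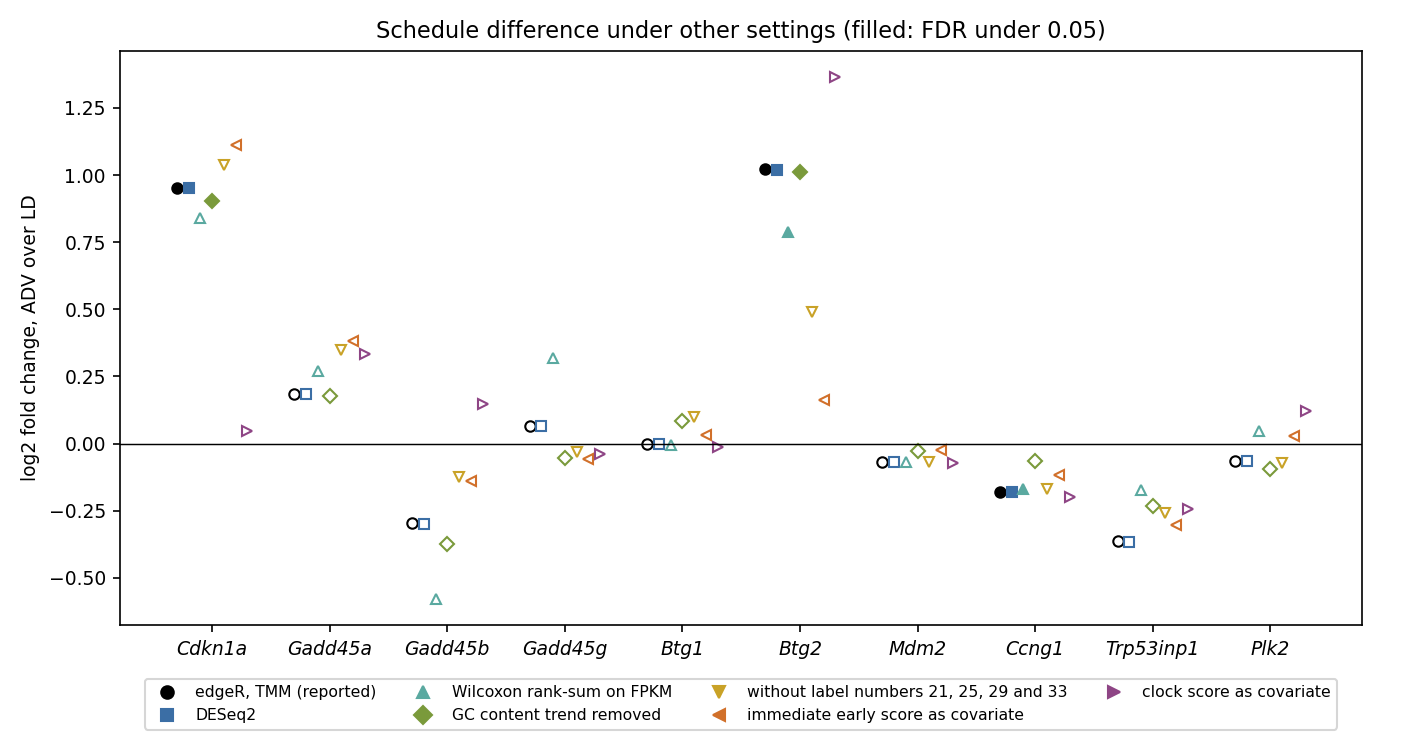
Log2 fold change of ADV over LD for each member under edgeR with TMM normalization and 6 other settings, filled where the FDR over all genes was under 0.05 and open otherwise. Cdkn1a drops to 0.04 with the clock score as a covariate and Btg2 to 0.16 with the immediate early score, while Ccng1 moves from -0.18 to -0.06 with the trend with GC content removed.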

How the data were processed

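Poly(A)-enriched libraries of 14 LD and 16 ADV mice were compared, grouped by their labels. The authors aligned Trimmomatic-trimmed reads to GRCm39 using STAR 2.7.10a, dropped low-quality alignments, and quantified exons of UCSC known canonical transcripts in HOMER 4.11 (versions from the submitters' processing notes). The deposited counts are estimated counts in that HOMER counts each mate as 0.5 read. Of them, 14.8% were not whole, and all were rounded here. The deposited FPKM values of the authors equal these counts per exon length and library total to within 5.0e-04 FPKM. The authors describe the sequencing as stranded, and the strand setting of the counting is not given in the sources used here.

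For each symbol the longest row with a mean over 20 reads was kept, and genes with a mean FPKM over 0.5 were tested (12030). The schedules were compared by the quasi-likelihood F test of edgeR 4.0.16 after TMM normalization in R 4.3.3, tested on simulated data first. DEGs needed a fold change over 1.3 besides an FDR under 0.05. Correlations used log2 CPM and 100000 two-sided permutations (scipy 1.17.1). Alternatives were DESeq2 1.42.0, limma 3.58.1, the Wilcoxon rank-sum test, other size factors and filters, a block on the label number, scores as covariates, removal of each library's trend with GC content, and each library left out in turn. The fit without label numbers 21, 25, 29 and 33 and the one with both scores were chosen after seeing the data.

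The genes named are the members, in each pathway list up to 4 with the largest change among those with an FDR under 0.05 and up to 2 of the most abundant others, Trp53 and Mdm4, and for 5 members (and, added later, Btg2) the 3 genes most like them. Ddb2, Ddit4 and Bbc3 were named besides for their values among the other p53 targets. The members and lists were chosen with earlier results of these data known. Upstream sequences were read from the GRCm39 assembly and overlaps from GENCODE vM39. The sequence upstream of 1 member is not reported here. No pair of libraries of a group was as close as sampling noise would leave it (smallest chi-square per degree of freedom 10.6 in each group).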

Additional observations from a re-analysis of the deposited data

How the results depend on the processing

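In the 30 fits that each left out 1 mouse, 3 members had an FDR under 0.05 and 2 were DEGs every time, with FDRs up to 0.0427 for Cdkn1a, 0.0132 for Btg2 and 0.0336 for Ccng1. Whether the label numbers pair the mice is not in the labels, and the values do not settle it. The deviations from the group mean in the 14 pairs with the same number had correlations of -0.26 to 0.43. Their median was 0.011, 6 were over 0.1, and 3 mice matched their own number best. With the number as a block over 28 libraries 1 member (Btg2) had an FDR under 0.05 and 1 was a DEG, and 3 and 2 were without the block; over all genes 491 against 613 were called. With the clock score, the immediate early score or both as covariates, and without label numbers 21, 25, 29 and 33, 0 members had an FDR under 0.05 and 0 were DEGs. With both scores the log2 fold change was 0.19 for Cdkn1a and 0.38 for Btg2. Both limma fits and the Wilcoxon rank-sum test gave 1 DEG, Btg2. Over all genes 1306 were called, and 0 with the clock score or both scores, 76 with the immediate early score, 599 with the trend with GC content removed and 453 without the 4 label numbers. The cause of these changes was not tested.

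Of the other p53 targets 1 had an FDR under 0.05, and the count was 2 with library size alone, with the stricter filter, with either limma fit, with the Wilcoxon test and without the 4 label numbers. It was 3 with DESeq2, 0 with either or both scores and with the trend with GC content removed, and 1 to 4 when 1 mouse was left out (4 without ADV mouse 31, 3 without LD mouse 21, and 2 without LD mouse 30, 33 or 34 or ADV mouse 21, 22, 23, 25, 27, 29 or 34). DESeq2 called 1673 of all 12030 genes.

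The log2 fold changes that turned sign belonged to members that did not pass the test. Gadd45b was at 0.15 with the clock score and 0.41 with both scores. Gadd45g was at -0.0379 with the clock score, -0.0582 with the immediate early score, -0.0550 with the trend with GC content removed, -0.0317 without the 4 label numbers, -0.24 with both scores, and -0.0066 to 0.21 when 1 mouse was left out. Btg1 was at 0.0093 with library size alone, 0.0018 with the looser filter, 0.0076 and 0.0070 in limma, 0.0016 over 28 libraries without the block, 0.0318 with the immediate early score, 0.0825 with the trend with GC content removed, 0.0990 without the 4 label numbers, 0.0262 with both scores, and -0.0327 to 0.0370 when 1 mouse was left out. Plk2 was at 0.0455 by the Wilcoxon test, 0.12 with the clock score, 0.0294 with the immediate early score and 0.25 with both. The median correlation among members stayed at 0.12 to 0.18 in the LD group and 0.0027 to 0.07 in the ADV group under the Spearman, FPKM and clock-adjusted forms. Genes near 20 reads have a large counting error.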
